A study of Mus musculus with 6 samples.

Results

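The imprinted cluster at the distal end of mouse chromosome 7 was followed through 10 genes of 2 adjoining domains, the Igf2/H19 domain (Igf2 and H19) and the Kcnq1 domain (Cdkn1c, Phlda2, Slc22a18, Kcnq1, Kcnq1ot1, Ascl2, Cd81 and Tssc4). Its members were every probe set whose gene symbol in the platform annotation, alone or among several, was one of these names. This gave 8 probe sets for 8 of the 10 genes, 1 each and each with a single symbol, out of 23410 probe sets with at least 1 symbol. No probe set carried the symbol H19 or Kcnq1ot1, and these non-coding RNAs were not analysed here.

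The samples were 6 cultures, each hybridised to 1 Affymetrix Mouse Gene 1.0 ST array, of female mouse embryonic stem (ES) cells of mixed C57BL/129 background. Of these cultures 3 were Scc1 lox/lox ERT2-Cre, in which the Cre recombinase can remove the floxed Scc1 gene, and 3 were Scc1 wt/wt ERT2-Cre, in which Scc1 has no lox sites. Scc1, today called Rad21, encodes the kleisin subunit of cohesin, the ring complex that holds sister chromatids and extrudes chromatin loops. All cultures grew on laminin in N2B27 with 2i (inhibitors of MEK and GSK3) and LIF, all carried ERT2-Cre, a recombinase released into the nucleus by 4-hydroxytamoxifen (4'-OHT), and all received 4'-OHT for 24 h. The sample labels give the dose as 80 nM, whereas the design text has the same figure in mM. Since no untreated culture was analysed here, an effect of 4'-OHT or Cre common to both genotypes cannot be seen, and cohesin loss and any earlier difference between the cell lines cannot be told apart. The sources used here do not say whether a genotype was 1 clone or several.

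In an imprinted domain a gene is transcribed mainly from the chromosome inherited from one parent. In the Kcnq1 domain the non-coding RNA Kcnq1ot1 starts inside Kcnq1 from the paternal chromosome and silences neighbours there, so that Cdkn1c, Phlda2, Slc22a18, Kcnq1 and Ascl2 are known as maternally expressed, several of them mostly in the placenta. In the Igf2/H19 domain CTCF, with which cohesin shares many sites, binds the maternal control region and insulates Igf2 from enhancers that then serve H19. An expression array sums both alleles, so the parental origin of the transcripts was not measured.

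The targeted gene checked the labels. The log2 intensity of Rad21 was 10.02 ± 0.03 with wild-type alleles and 6.09 ± 0.04 with floxed alleles (mean ± SD over 3 arrays each), or 15.2-fold lower. Array medians ran from 4.85 to 4.94, around 4.90 over all values. On the main component of variation within the genotypes wt/wt replicate 2 and lox/lox replicate 3 stood apart by their negative sign. Their loadings were -0.62 and -0.48, the others between 0.12 and 0.50. By size alone wt/wt replicate 1, at 0.50, was as far from the centre as lox/lox replicate 3. All of 16 listed naive and general pluripotency genes lay above the array median in both genotypes. The same held for 11372 of all 19938 genes in the control genotype and 11428 in the floxed one. It also held for 11 of 18 fibroblast markers in each genotype, so this position alone does not test ES cell identity. Over all 19938 genes 3.51% were called lower and 2.54% higher at an adjusted p under 0.05. Of the 16 pluripotency genes 9 were lower and 1 higher in lox/lox cells at that threshold. The largest decrease was that of Prdm14, a regulator of naive pluripotency, at -1.82 (adjusted p = 0.00014), and the higher gene, Utf1, named after its values were seen, passed in 0 of the 6 fits that each omit an array.

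In the Kcnq1 domain 3 genes that follow one another on the chromosome, Cdkn1c, Slc22a18 and Phlda2, were higher in lox/lox cells, by 2.06-, 1.61- and 2.02-fold. Ascl2, at the far side of the domain, was 1.47-fold higher on average and missed the threshold narrowly, while Kcnq1, Tssc4, Cd81 and Igf2 had differences of at most 1.09-fold. So 3 of 8 members were called higher and none lower in limma at an adjusted p under 0.05 (4 of 8 at an unadjusted p under 0.05), where 2.63% of all 23410 probe sets were called higher and 3.43% lower, 6.06% in all, and 17.9% had an unadjusted p under 0.05. The median log2 difference of the 8 was 0.34, beside -0.006 over all probe sets. Leaving out lox/lox replicate 2, or both arrays that stood apart, gave 2 called members instead of 3, and the share called higher over all probe sets was then 1.36% and 1.14%.

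The upstream regions of these genes are shown because 2 of the 3 higher genes, Slc22a18 and Phlda2, can be set beside Ascl2 and Tssc4 of the same domain. RefSeq promoter windows (build GRCm38.p6) were found for 7 of the 10 members, which had 10 windows in all, and the 250 bases before each transcript start are used. Capitals mark CCCTC, the core of the CTCF motif, or its reverse complement.
Slc22a18 promoter, chr7:143473539-143473788 (+ strand): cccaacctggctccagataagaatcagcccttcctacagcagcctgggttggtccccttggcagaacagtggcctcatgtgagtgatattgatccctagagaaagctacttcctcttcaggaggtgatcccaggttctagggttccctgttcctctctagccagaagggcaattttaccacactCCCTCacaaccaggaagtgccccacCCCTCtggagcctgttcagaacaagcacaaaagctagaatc
Phlda2 promoter, chr7:143502525-143502774 (- strand): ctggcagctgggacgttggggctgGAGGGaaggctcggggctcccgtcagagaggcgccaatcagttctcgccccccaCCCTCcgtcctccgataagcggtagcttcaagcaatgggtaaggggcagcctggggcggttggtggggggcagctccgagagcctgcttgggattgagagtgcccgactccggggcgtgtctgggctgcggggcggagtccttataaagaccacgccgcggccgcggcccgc
Ascl2 promoter, chr7:142969265-142969514 (- strand): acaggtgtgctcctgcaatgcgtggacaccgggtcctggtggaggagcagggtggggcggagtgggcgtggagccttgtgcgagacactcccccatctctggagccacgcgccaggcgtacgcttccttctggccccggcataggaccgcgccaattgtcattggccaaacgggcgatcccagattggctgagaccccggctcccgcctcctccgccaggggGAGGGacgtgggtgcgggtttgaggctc
Tssc4 promoter, chr7:143069118-143069367 (+ strand): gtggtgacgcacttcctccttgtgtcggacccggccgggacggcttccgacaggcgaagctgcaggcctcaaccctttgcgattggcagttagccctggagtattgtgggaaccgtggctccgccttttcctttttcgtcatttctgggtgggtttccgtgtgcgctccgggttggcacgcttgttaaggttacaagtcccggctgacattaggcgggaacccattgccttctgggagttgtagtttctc

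The windows of the higher genes differed in base composition. That of Slc22a18 held 0 CpG dinucleotides in 250 bases and that of Phlda2 held 21, beside 19 in Ascl2, 17 in Tssc4 and a median of 6 over 32851 mouse promoter windows. CCCTC on either strand occurred at 2 places in each of Slc22a18 and Phlda2, at 1 in Ascl2 and at 0 in Tssc4, and 60.5% of all windows hold at least 1. Cd81, which did not pass, also had 2 matches, and the 4 windows of Igf2, which did not pass either, had 6, 8, 0 and 1. Neither TGCCGC, the motif of the imprint-protecting factor Zfp57, nor GGGGCCCC, a motif of Plagl1, was found on either strand in any of the 10 windows, against 8.68% and 0.889% of all windows. These matches are a description of the letters only.

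Cdkn1c encodes a Cip/Kip inhibitor of cyclin-dependent kinases that restrains the cell cycle and embryonic growth. In the wt/wt arrays, in the order of their replicate numbers, its log2 intensity was 6.53, 6.13 and 6.54. In the lox/lox arrays it was 7.29, 7.53 and 7.50. Every lox/lox array was above every wt/wt array, and the lowest wt/wt value was that of replicate 2. The log2 difference was 1.04 (SE 0.12, 95% interval 0.76 to 1.32), which corresponds to 2.06-fold (1.70 to 2.49), with an adjusted p of 0.00158 in limma. It ranged from 0.90 to 1.11 when single arrays were left out and passed each time (adjusted p of at most 0.0119).

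Slc22a18 lies next to Cdkn1c and encodes a transporter of the organic cation family. It measured 6.12, 5.97 and 6.09 in the wt/wt arrays and 6.70, 6.71 and 6.82 in the lox/lox arrays. The replicates of each genotype lay close together and the genotypes did not overlap. The log2 difference of 0.68 (SE 0.08, 95% interval 0.51 to 0.86) was 1.61-fold, and its adjusted p of 0.00116 was the smallest among the members. Without single arrays it stayed between 0.64 and 0.71, with an adjusted p of at most 0.00822.

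Phlda2, a small pleckstrin homology domain protein known for limiting placental growth, measured 7.26, 7.04 and 7.13 in wt/wt cells. In lox/lox cells it measured 7.68, 8.33 and 8.45. All lox/lox values were higher, yet replicate 1 lay below the others, and the SD of 0.41 was the widest of any member. The log2 difference was 1.01 (SE 0.18, 95% interval 0.61 to 1.41), or 2.02-fold, with an adjusted p of 0.0108 in limma. The call was lost without lox/lox replicate 2 (adjusted p = 0.0579, log2 difference 0.92), when all 35556 probe sets of the table were tested (adjusted p = 0.0581) and without both arrays that stood apart (adjusted p = 0.107).

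Ascl2, a basic helix-loop-helix transcription factor needed for the trophoblast of the placenta and active in intestinal stem cells, measured 5.43, 5.01 and 5.56 in wt/wt and 5.86, 5.77 and 6.02 in lox/lox arrays. The genotypes did not overlap, but the gap was narrow and wt/wt replicate 2 lay well below the other control arrays. Its log2 difference was 0.55 (SE 0.14, 95% interval 0.24 to 0.86) with an adjusted p of 0.0506, just outside the threshold. It was 0.39 without wt/wt replicate 2 (adjusted p = 0.0793) and 0.32 without both arrays that stood apart (adjusted p = 0.131). It passed without wt/wt replicate 3 (adjusted p = 0.0434, log2 difference 0.67) and in 7 of 10 other ways of processing the values. In each of these 7 ways 4 members were called, beside 1213 to 1806 features over all tested, where the main fit called 1418. A filter on dim probe sets, among the 7, removes Igf2.

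**Figure D1:**
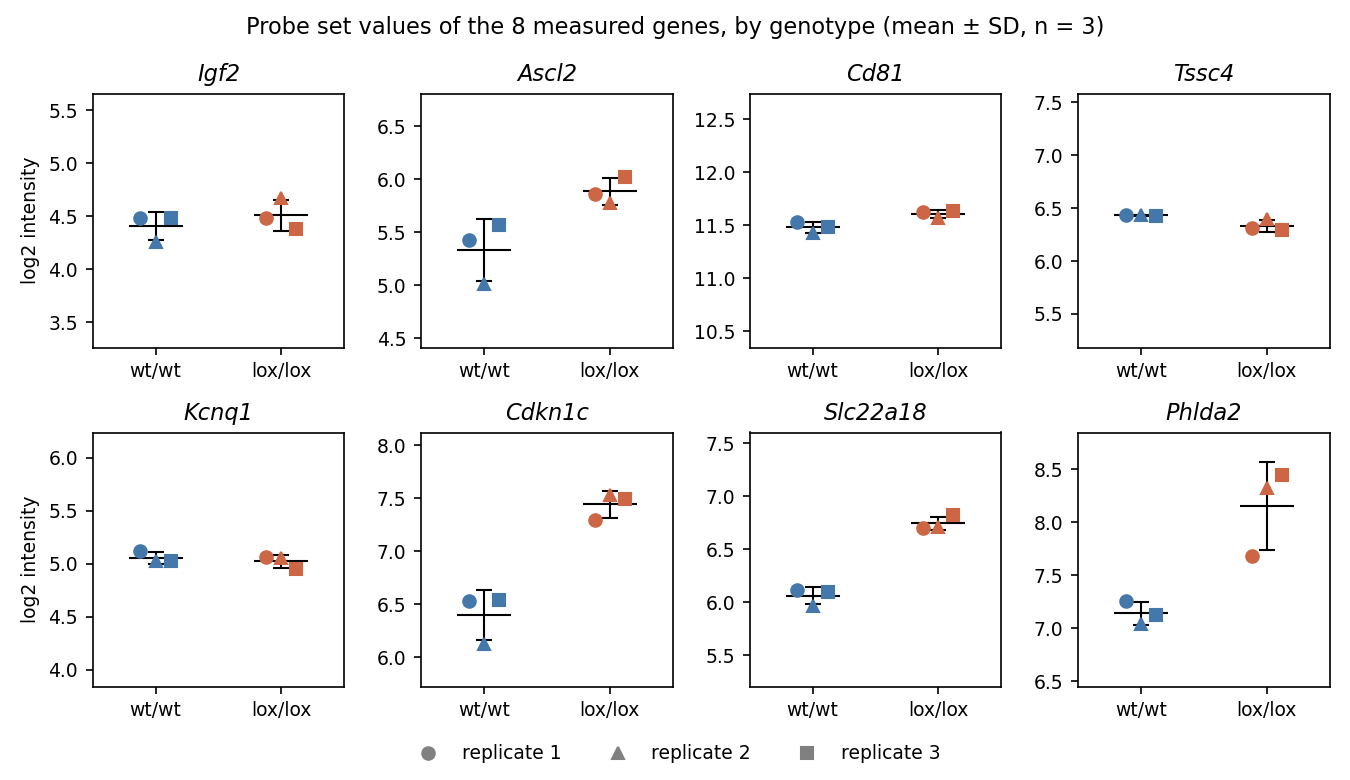
Log2 intensity of the 8 measured genes in each array, grouped by genotype; symbols mark replicate numbers, and horizontal lines with bars give the mean ± SD (n = 3). Every panel spans the same number of log2 units, and the lox/lox arrays of Cdkn1c (7.29 to 7.53), Slc22a18 (6.70 to 6.82) and Phlda2 (7.68 to 8.45) lie clear of the wt/wt arrays.

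Kcnq1, the voltage-gated potassium channel that gives the domain its name, measured 5.12, 5.02 and 5.02 in wt/wt and 5.07, 5.06 and 4.95 in lox/lox arrays, close to the array median. The genotypes overlapped, and the log2 difference of -0.03 had a 95% interval of -0.19 to 0.13 (adjusted p = 0.897 in limma). Kcnq1ot1, which starts within it, had no probe set, so the RNA itself gives no value here.

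Tssc4, which encodes an assembly factor of the U5 spliceosomal particle, measured 6.44, 6.43 and 6.42 in wt/wt and 6.31, 6.39 and 6.30 in lox/lox arrays. Its log2 difference was -0.10 (95% interval -0.25 to 0.05, adjusted p = 0.527), although each lox/lox value lay below each wt/wt value. Cd81, a tetraspanin of the cell surface, measured 11.54, 11.43 and 11.48 in wt/wt and 11.62, 11.57 and 11.64 in lox/lox arrays, a log2 difference of 0.13 (95% interval -0.03 to 0.28, adjusted p = 0.408). The upper ends of the intervals correspond to a 1.22-fold increase of Cd81 and a 1.04-fold increase of Tssc4. Groups that did not overlap were thus seen in 6 of 8 members, 5 higher and 1 lower, where 10.5% of all probe sets were higher and 12.5% lower without overlap, 22.9% in all.

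Igf2, the fetal growth factor of the neighbouring domain, measured 4.48, 4.25 and 4.48 in wt/wt and 4.48, 4.67 and 4.38 in lox/lox arrays. Its means lay below the overall median of 4.90 in both genotypes, unlike those of the 7 other members. Its log2 difference was 0.10 (95% interval -0.12 to 0.33, adjusted p = 0.679). Mir483, whose hairpin lies inside Igf2, had a log2 difference of -0.02 (95% interval -0.27 to 0.22, adjusted p = 0.947). A further probe set is annotated to both Mir675, the microRNA encoded within H19, and Supt6, a gene elsewhere, and was assigned to neither here. It measured 5.28, 5.001 and 5.39 in wt/wt and 5.54, 5.60 and 5.50 in lox/lox arrays, a log2 difference of 0.32 with an adjusted p of 0.127. Every lox/lox value lay above every wt/wt value, as in 10.5% of all probe sets. The probe set of Supt6 alone had a mean of 8.38 in wt/wt arrays. It was also higher in lox/lox arrays without overlap, with a log2 difference of 0.18 (adjusted p = 0.319 in limma).

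The 7 other members were set against Cdkn1c by their log2 ratio within each array, since a call for one gene and not for another does not show that they differ. The change of Cdkn1c exceeded that of Tssc4 by 1.14 (SE 0.15), of Kcnq1 by 1.07 (SE 0.16), of Igf2 by 0.94 (SE 0.11) and of Cd81 by 0.91 (SE 0.14) on the log2 scale. It exceeded that of Ascl2 by 0.49 (SE 0.11) and that of its neighbour Slc22a18 by 0.36 (SE 0.11). In these 6 ratios the genotypes did not overlap, and the exact two-sided permutation test gave p = 0.1 (0.117 after Benjamini-Hochberg adjustment over 7 comparisons), the smallest p that 3 arrays against 3 can give. Cdkn1c had the largest log2 difference of the members, so the positive sign of these differences follows from taking it as the reference. Its own values did not overlap between the genotypes. The separation of its ratios to members that changed little, and the p that goes with it, therefore largely follow too and are no separate support. Igf2 lay below the overall median and Kcnq1 close to it, where a change may be hard to see. Against Phlda2 the difference in change was 0.03 (SE 0.19, exact permutation p = 1) and ran from -0.13 to 0.15 over the fits without 1 array.

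**Figure D2:**
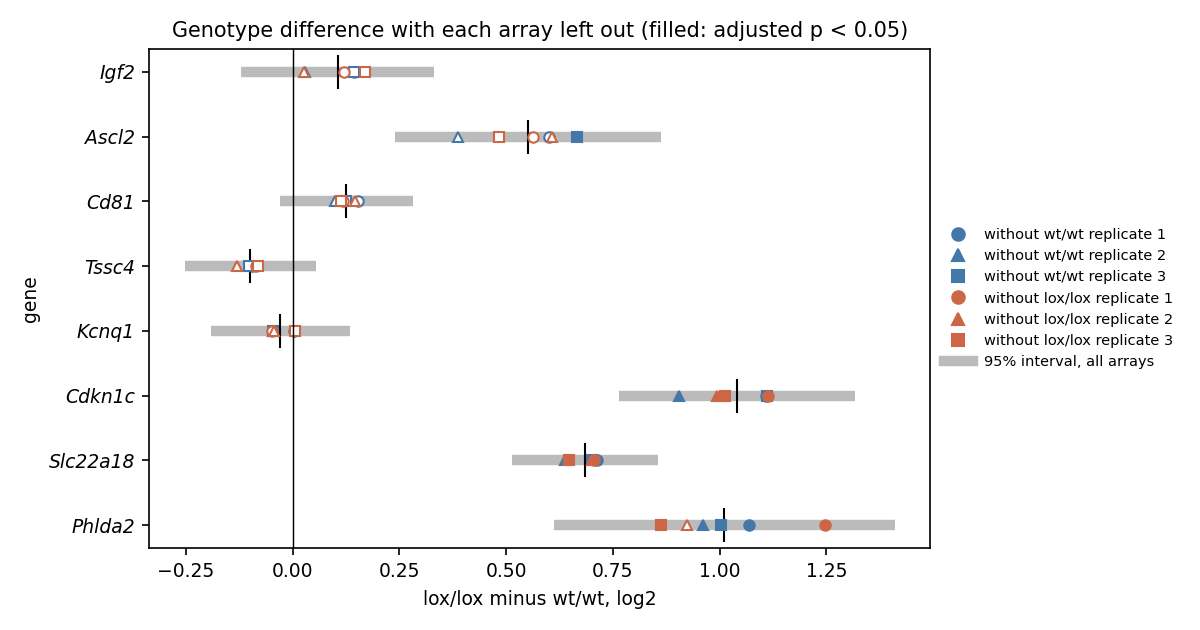
Log2 difference (lox/lox minus wt/wt) of each member with all arrays (black tick, with the 95% interval as a grey bar) and with each array left out (symbols, filled where the adjusted p was under 0.05). Cdkn1c and Slc22a18 stay filled throughout, Phlda2 is open without lox/lox replicate 2, and Ascl2 is filled only without wt/wt replicate 3.

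One control array was low for most members. Of the 8 members 7 had their lowest wt/wt value in replicate 2, which also had the lowest array median, 4.85. For Kcnq1 this rests on a near tie, with replicates 2 and 3 both at 5.02. The same share over all probe sets was not counted, so the count is not read as particular to the members. Among lox/lox arrays the lowest value fell on replicate 1 for 3 members, on replicate 2 for 2 and on replicate 3 for 3. Centring the arrays on a common median gave 4 called members, with Ascl2 added (adjusted p = 0.0293 in limma), and 1317 called probe sets in all. Without wt/wt replicate 2 the log2 differences of Cdkn1c, Slc22a18 and Phlda2 were 0.90, 0.64 and 0.96, each still past the threshold.

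The measured genes around these 3 were followed in chromosomal order. Between Igf2 and Phlda2 another 7 genes that are no members were measured, and 0 of them passed in limma (0 also at an unadjusted p under 0.05), with log2 differences from -0.15 to 0.14. These include Ins2, a mouse insulin gene, at 0.07, Th, which encodes the rate-limiting enzyme of dopamine synthesis, at -0.15, the tetraspanin gene Tspan32 at 0.14 and the cation channel gene Trpm5 at 0.13. Most were weak, with 1 of the 7 above the array median. Directly after Phlda2, the nucleosome assembly gene Nap1l4 had a log2 difference of -0.03 (95% interval -0.18 to 0.12) and the cysteinyl-tRNA synthetase gene Cars one of 0.02 (95% interval -0.14 to 0.18). Both are well expressed, at 9.88 and 10.03 in control cells.

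Of the 20 measured genes before Igf2, 1 was lower, and of the 20 after Phlda2, 1 was higher and 1 lower, with median log2 differences of 0.04 and 0.03. The lower gene before was Tollip, an adaptor of Toll-like receptor signalling, at -0.30 (adjusted p = 0.0351). After the cluster Dhcr7, the last enzyme of cholesterol synthesis, was higher by 0.36 (adjusted p = 0.0326), and Fgf4, a growth factor of the inner cell mass, was lower by 1.49-fold (log2 difference -0.57, adjusted p = 0.00343). Tollip and Dhcr7 each lost the call in all 6 fits without 1 array (adjusted p up to 0.141 and 0.129, both without wt/wt replicate 3), whereas Fgf4 passed in all 6. Over chromosome 7 as a whole 2.83% of 1734 measured genes were called higher and 2.6% lower. Among 17 measured genes of a list of the cluster's flanks, Dhcr7 was the 1 called member, with a median of 0.07. In that list Tnfrsf22, a decoy receptor of the TNF receptor family, had a log2 difference of 0.29 with an adjusted p of 0.0517.

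**Figure D3:**
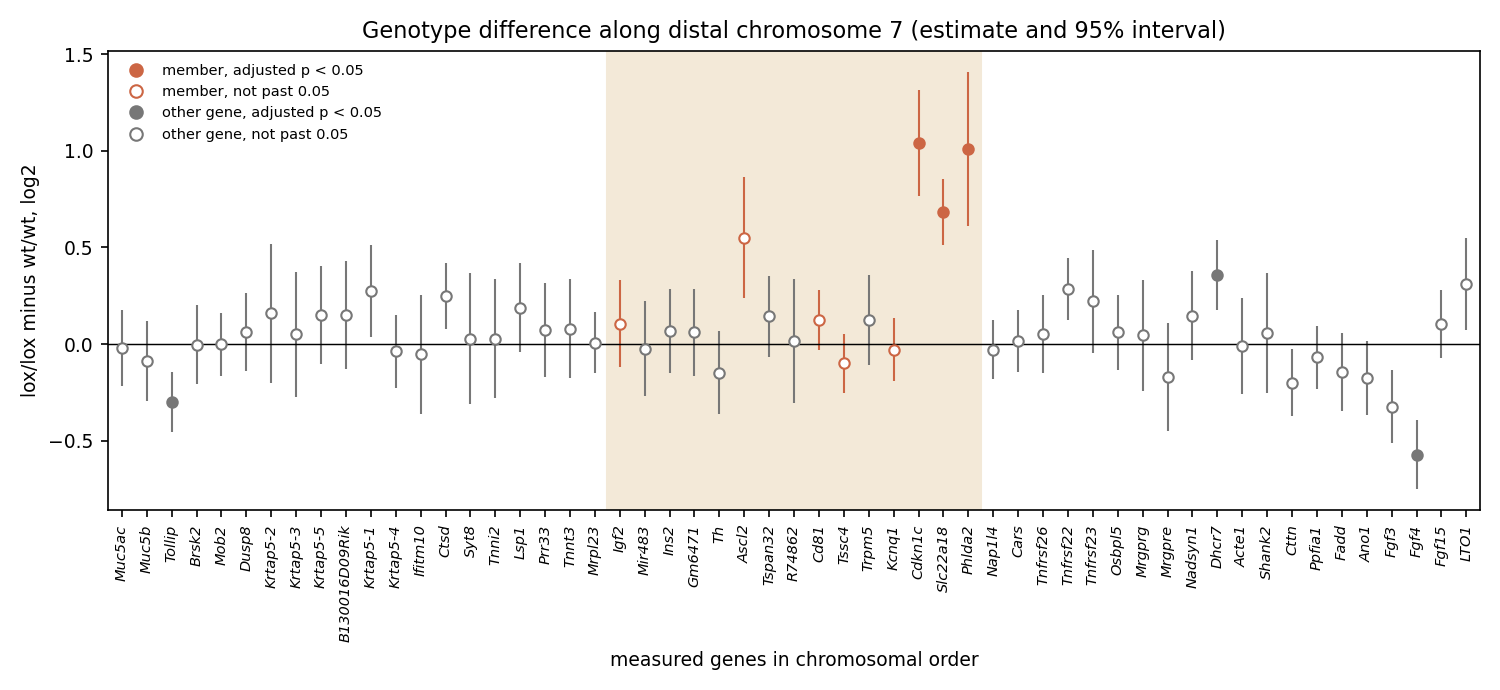
Log2 difference (lox/lox minus wt/wt) with its 95% interval for measured genes in chromosomal order, from the 20 before Igf2 to the 20 after Phlda2; orange marks members, filled points an adjusted p under 0.05, and shading the stretch from Igf2 to Phlda2. The increases of 1.04, 0.68 and 1.01 stand at Cdkn1c, Slc22a18 and Phlda2, between Kcnq1 at -0.03 and Nap1l4 at -0.03.

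Most of the listed factors that keep or write imprints did not pass, and the calls went in both directions. Of 20 listed genes, all measured, 2 were higher, 3 lower and 15 not called, where 2.54% of all 19938 genes were called higher and 3.51% lower. Dnmt3l, which assists the de novo methyltransferases, rose by 1.48 on the log2 scale (adjusted p = 3.79e-05) and Dnmt3b, one of those enzymes, by 0.47 (adjusted p = 0.00788). Tet2, which oxidises methylcytosine, fell by 1.77 (adjusted p = 0.00322). The other lower members, Rnf2 of Polycomb complex 1 (named after its values were seen) at -0.39 and the histone methyltransferase gene Ehmt2 (likewise) at -0.28, passed in 1 and 0 of the 6 fits without 1 array. Their adjusted p rose to 0.143 without lox/lox replicate 2 and to 0.167 without wt/wt replicate 3, so that Tet2 alone was called lower when either of these arrays, wt/wt replicate 2 or lox/lox replicate 3 was omitted. Zfp57, the imprint-protecting factor, did not pass, at -0.29 (adjusted p = 0.113 in limma). Nor did Trim28 at -0.11, Dnmt1 at -0.09, Uhrf1 at -0.05 and Zfp445 at 0.03.

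Among imprinted genes outside the cluster 31 of 37 listed were measured, and 5 were higher and 5 lower in lox/lox cells, with a median of -0.06, beside 2.54% of all genes called higher and 3.51% lower. Plagl1, a zinc finger gene whose product is known to act on Cdkn1c, Igf2 and H19, was lower by 5.47-fold (log2 difference -2.45, adjusted p = 0.00014). H13, a signal peptide peptidase gene, rose by 0.92 (adjusted p = 0.000668) and Mest, of the hydrolase fold family, by 0.87 (adjusted p = 0.00147). All of these passed in each fit without 1 array, while the number of higher genes in this list was 3 without any one of wt/wt replicate 2, wt/wt replicate 3 and the lox/lox replicates.

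Genes known as partners of Igf2 and Cdkn1c were read against the 2.54% of all genes called higher and 3.51% called lower. Of 16 measured genes of the insulin-like growth factor pathway 1 was lower, the insulin receptor gene Insr at -0.67 (adjusted p = 0.0332), which passed in 1 of the 6 fits that each omit an array, the one omitting lox/lox replicate 3. Omitting wt/wt replicate 2 gave the highest adjusted p, 0.11. The receptor genes Igf1r and Igf2r did not pass. Of 10 measured Cip/Kip and G1 genes 1 was lower, Ccnd3, which encodes a D-type cyclin, at -1.13 (adjusted p = 0.000105), and in 5 of the 10 the lox/lox arrays all lay below the wt/wt arrays, as in 12.5% of all probe sets. Cdkn1b, the close relative of Cdkn1c, had a log2 difference of -0.25 and did not pass (adjusted p = 0.0872).

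Several members are known for high expression in placenta, yolk sac or fibroblasts, so markers of such cells are given beside them, and their counts stand against the same 2.54% of all genes called higher and 3.51% lower. Of 16 measured trophoblast markers 0 were higher and 4 lower (Tfap2c at -0.87, Gata2 at -0.40, Gata3 at -0.62 and, named after its values were seen, Plet1 at -0.54), with a summed intensity of 866 to 926 in wt/wt and 715 to 732 in lox/lox arrays. Without lox/lox replicate 2 none of these 4 was called (adjusted p up to 0.148), and 1 to 3 were in the other fits without 1 array, 1 of them without wt/wt replicate 2. Of 18 fibroblast markers 11 lay above the array median in wt/wt cells. The 1 called higher was Sparc, a matricellular protein gene also made by ES-derived endoderm, at 0.47 (adjusted p = 0.00418). The summed intensity was 5573 to 5963 in wt/wt and 6555 to 7064 in lox/lox arrays. This sum is mostly that of the brightest markers, Vim, Fn1 and Sparc, at 11.56, 10.37 and 9.78 in wt/wt cells. The median log2 difference of the 18 was 0.09, with 13 positive and 5 negative, among the latter Col1a1 and Col1a2 at -0.03 each. Of 16 primitive endoderm markers the laminin genes Lamb1 at 0.78 and Lama1 at -0.36 passed, Lama1 only without lox/lox replicate 3 among the 6 fits without 1 array, with overlapping sums of 696 to 796 and 764 to 783. Of 10 mesoderm and streak markers Bmp4 at 0.84 was higher and Gsc at -0.66 lower, the latter not without wt/wt replicate 2, wt/wt replicate 3 or lox/lox replicate 2, with sums of 408 to 435 and 444 to 460. Bmp4 was the brightest of these 10 in lox/lox cells, at 7.37. Their median log2 difference was -0.04, with 4 positive and 6 negative. Naive genes had a summed intensity of 21470 to 22728 in wt/wt and 16823 to 18497 in lox/lox arrays. In such bulk RNA a change in the share of a cell type and one in RNA per cell cannot be told apart, and the part of these markers in the cluster's differences was not tested.

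The genes whose 6 values were most like those of Cdkn1c were found by Euclidean distance after subtracting each probe set's own mean. They were Spint2, a serine protease inhibitor gene (distance 0.29, log2 difference 1.13), Dpysl3 (0.30 and 1.04), Cavin1, a coat protein gene of caveolae (0.30 and 0.91), the Ras activator gene Rasgrp1 (0.30 and 1.05) and Naaa, an acid amidase gene (0.31 and 0.93). Since they were chosen for their likeness to Cdkn1c, their difference between the genotypes follows from the choice and is given as a description, with no test.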

How the data were processed

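The deposited table holds log2 intensities of 35556 probe sets on 6 arrays, 1 per sample, to which the authors' tools RMA and affy belong, per the submitters' processing notes. No version, option or genome build is given in the sources used here. RMA assumes like distributions on all arrays, so a general change in RNA content is hidden. Samples were grouped by the genotype in their titles, and 3 arrays per genotype limit the precision.

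The platform annotation gave 1 symbol to 21789 probe sets, several to 1621 and none here to 12146. The 23410 named probe sets were fitted with limma (version 3.58.1, R 4.3.3) by lmFit and eBayes with genotype as the only term, Benjamini-Hochberg adjustment over all of them and calls at an adjusted p under 0.05. In gene lists a gene is represented by its single-symbol probe set of highest mean (19938 genes). Gene order came from the RefSeq table of GRCm38.p6. The design text calls the 3 replicates biological and gives no pairing, so none was used. Deviations of same-numbered arrays correlated at 0.06, -0.12 and -0.05.

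Named genes were the members, Rad21, Plagl1, the called flanking genes, up to 3 called genes of smallest p per list and the 5 nearest to Cdkn1c; others are marked, or are neighbours and list members that did not pass. Members and lists were chosen with earlier results of these data known. Alternatives were other scalings, a filter on dim probe sets, other sets of features, variance models, array weights, a replicate block, other thresholds and arrays left out.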

Additional observations from a re-analysis of the deposited data

How the results depend on the processing

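Cdkn1c and Slc22a18 were called in all 10 alternative ways of processing and in all 6 fits without 1 array. Phlda2 was not called with all probe sets of the table tested (log2 difference 1.01, adjusted p = 0.0581) or without both arrays that stood apart (0.81, adjusted p = 0.107), and without single arrays it ran from 0.86 to 1.25. Ascl2 passed with quantile normalization (log2 difference 0.54, adjusted p = 0.0426), median centring (0.53, 0.0293), cyclic loess (0.54, 0.0475), the filter on dim probe sets (0.55, 0.0408), 1 probe set per gene (0.55, 0.0386) and eBayes with trend and robust (0.55, 0.0276), and ran from 0.39 to 0.67 without single arrays. The filter and the choice of 1 probe set per gene test fewer features, and all probe sets more. The cause of a gained or lost call was not tested for any setting. Kcnq1 lay near 0 and ran from -0.050 to 0.0060 over the fits without 1 array, the positive values being 0.0031 (wt/wt replicate 1 omitted) and 0.0060 (lox/lox replicate 3 omitted). The change of Cdkn1c minus that of Phlda2 ran from -0.13 to 0.15, at -0.06 when wt/wt replicate 2 was omitted and -0.13 when lox/lox replicate 1 was. The number of called members was 2 to 4 over all settings.

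Over all named probe sets 1418 were called. The count was 682 to 1198 without single arrays, 702 without both arrays that stood apart and 808 among all 35556 probe sets. It was 597 at an adjusted p under 0.01, and 535 at an adjusted p under 0.05 with a change of at least 1.5-fold. With the replicate block 4 members were called, Ascl2 at 0.55 with an adjusted p of 0.0133, and 1213 probe sets in all. Of 6 arrays 1 correlated best with the array of its own number. With 3 arrays per genotype this cannot tell whether same-numbered cultures shared a day or batch. The filter on dim probe sets removed Igf2, which has no value there. Scaling moved the median of all probe sets by less than 0.1.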
